A study of Mus musculus with 8 samples.

Results

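The genes described here are 10 of mucin-type and epithelial glycosylation, all glycosyltransferases except the chaperone C1galt1c1: Galnt12, C1galt1, C1galt1c1, Gcnt1, Gcnt3, B3gnt6, B3gnt7, Fut2, B4galnt2 and B3galnt1. They were chosen by symbol from the 17041 genes of the deposited table, with earlier results of the same table in view. Those results already placed B3galnt1 among the genes that the authors called and B4galnt2 highest in 3 particular libraries. All 10 were found, and all 10 passed the minimum mean of 10 normalized units over the libraries. Because of that choice, differences between the groups are given for them as a description. Calls among them are counted only beside the same count over all genes.

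The data are 8 libraries of messenger RNA from the proximal large intestine. All mice were ApoE knockouts, a strain prone to atherosclerosis, born germ-free, gavaged with a defined bacterial community at 8 weeks and dissected at 26 weeks. In the core group (3 libraries) the community makes no butyrate. In the core plus Roseburia intestinalis group (5 libraries, called Roseburia libraries below) that butyrate-producing species was added. The comparison of the groups asks how the added bacterium alters gene expression in the gut wall. The labels name neither diet, sex nor isolator for a library, and do not say that each came from a separate mouse, so p-values measure only the spread between these libraries, which may be technical.

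Mucin glycans are built one sugar at a time in the Golgi. A polypeptide GalNAc transferase first links N-acetylgalactosamine to serine or threonine, and core enzymes then add galactose or N-acetylglucosamine. Other transferases extend the chain, and fucose, sialic acid, sulfate or a terminal N-acetylgalactosamine close it. In the colon these glycans coat the secreted mucus and the brush border, and gut bacteria bind and feed on them.

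RefSeq promoter windows (build GRCm38.p6) were matched by symbol for 5 of the 10 genes: B4galnt2, B3gnt7, B3galnt1, C1galt1 and Gcnt1. The windows of 3 of them are shown because B3gnt7 and B4galnt2 had the largest SD of log2 values over the libraries and B3galnt1 was the member whose groups did not overlap. Each is the 250 bases before the annotated start, 5′ to 3′ on the strand of the gene. They lie at chr11:95914872-95915121 (minus strand) for B4galnt2, chr1:86302971-86303220 (plus strand) for B3gnt7 and chr3:69598961-69599210 (minus strand) for B3galnt1. Capitals mark matches to a searched motif.
B4galnt2: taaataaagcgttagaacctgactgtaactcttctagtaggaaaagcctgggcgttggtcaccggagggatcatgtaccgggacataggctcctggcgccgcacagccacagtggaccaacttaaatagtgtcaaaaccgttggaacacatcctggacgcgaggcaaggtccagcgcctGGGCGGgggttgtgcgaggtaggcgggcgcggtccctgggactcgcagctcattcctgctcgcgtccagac
B3gnt7: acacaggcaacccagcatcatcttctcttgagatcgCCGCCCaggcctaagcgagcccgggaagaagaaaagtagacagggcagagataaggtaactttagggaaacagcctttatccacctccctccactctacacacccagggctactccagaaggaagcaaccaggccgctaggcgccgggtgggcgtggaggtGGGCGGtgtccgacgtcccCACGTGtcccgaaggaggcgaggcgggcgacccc
B3galnt1: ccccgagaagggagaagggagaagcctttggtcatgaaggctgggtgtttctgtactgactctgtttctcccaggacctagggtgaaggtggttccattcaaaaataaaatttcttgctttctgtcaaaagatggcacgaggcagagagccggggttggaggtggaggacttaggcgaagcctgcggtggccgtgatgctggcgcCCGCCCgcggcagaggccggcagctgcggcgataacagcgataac

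Both strands were searched for 5 motifs: the GC box GGGCGG, the TATA box TATAAA, the E-box CACGTG, the HNF1 half-site GTTAAT and the core TTTATNG of caudal and posterior homeobox proteins. No matches overlapped each other in the windows shown. The B4galnt2 window held 1 GC box, 71 bases before the start, and B3galnt1 1 at 45 bases. B3gnt7 had 2 GC boxes, at 214 and 53 bases, and 1 E-box at 34 bases. A GC box occurs in 32.7% of the 32851 windows of this length in the table and an E-box in 6.02%. The TATA box (12.4% of all windows), the HNF1 half-site (6.43%) and the homeobox core (9.81%) were not found in these 3 windows. These matches describe letters only.

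Per kilobase of transcript, B4galnt2 stood far above the other members. Its level was 5407 ± 2535 normalized units per kilobase (SD, n = 8), rank 154 of 16836 genes with a transcript length. Gcnt3 followed with 897 ± 364, Fut2 with 733 ± 91.9 and C1galt1c1 with 690 ± 197, and these 3 neighbours overlapped in range. B3gnt7 (207 ± 185), B3gnt6 (203 ± 76.1) and Galnt12 (202 ± 40.1) had nearly equal means. Gcnt1 (111 ± 47.4) and C1galt1 (100.5 ± 25.3) came next, also overlapping, and B3galnt1 was lowest at 35.6 ± 11.3. The lowest library for B4galnt2, at 2544 per kilobase, was above the highest for Gcnt3, at 1359. Lengths are medians over coding transcripts of GENCODE M21, not the authors' annotation. All other values below are the authors' normalized values, not divided by length.

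Epithelial content was checked against markers. All 12 epithelial markers, among them Epcam, Cdh1, Krt20 and Vil1, and all 12 goblet cell markers were read in every library. The mean was higher in Roseburia libraries for 10 of the 12 epithelial markers (median log2 difference 0.21). Relative to them, the log2 difference given below for Galnt12 became −0.04 and that for Fut2 −0.40. The goblet mucin Muc2 ran from 75618 to 243420. The values are normalized expression as the authors deposited it. Estimated depth ran from 4597789 to 15351944 reads, and the lowest value of any member, 17.3 units of B3gnt7, stood for about 16 reads.

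A group of 3 libraries stood apart in several, but not all, genes of position along the gut: core replicate 3 and Roseburia replicates 2 and 4. Hoxb13, a homeobox gene of the distal colon, was at 25.3, 2.16 and 8.26 there and between 141 and 663 in the other 5, although all are labelled proximal. Aqp8, a water channel of colonocytes, was at 344, 47.4 and 101 there and between 1255 and 2867 elsewhere. The sum of 6 absorptive colonocyte markers, Aqp8 among them, went the other way. That sum was 121720, 137630 and 130130 there and between 52981 and 99050 elsewhere. Slc10a2, the ileal bile acid transporter, was at 509.7, 818 and 949 there and between 13.9 and 414 elsewhere. Hoxa13 was also lowest there (28.7, 6.47 and 24.8). Hoxd13 was not, at 4.59, 2.16 and 1.18 there and at 0.67 in Roseburia replicate 1. The sum of 5 small intestinal or proximal genes, Slc10a2 among them, was 1169, 1327 and 1748 there. It was 1681 in Roseburia replicate 1 and 1214 in Roseburia replicate 3, so these markers were mixed. The exact place of each piece along the large intestine is not stated in the labels. Its part in the values of the 10 genes was not tested.

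Galnt12 encodes a transferase that starts mucin-type chains in the digestive tract. Its values were 386, 364 and 428 in core replicates 1 to 3, and 646, 408, 415, 453 and 419 in Roseburia replicates 1 to 5. Roseburia replicate 1 was high and the other 7 libraries lay close together, with overlapping groups. The difference on the log2(value + 1) scale, Roseburia over core, was 0.23 (limma's SE 0.17), and 66.5% of the 13020 genes tested varied more between libraries.

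C1galt1 is the T-synthase, which makes the core 1 structure, and C1galt1c1 (Cosmc) is the chaperone it needs to fold. C1galt1 was read at 822, 567 and 728 in core and at 306, 542, 602, 624 and 704 in Roseburia libraries. Core replicates 1 and 3 were above all 5 of the other group, and core replicate 2 fell among them (log2 difference −0.38, SE 0.25). C1galt1c1 was read at 1180, 696 and 1408 in core and at 664, 1154, 879, 1264 and 752 in Roseburia libraries, with wide overlap (log2 difference −0.20, SE 0.27). The chaperone exceeded its client per kilobase in every library, by 5.16-fold to 8.13-fold in core and by 4.49-fold to 9.11-fold in Roseburia. Roseburia replicate 1 had the lowest value of both genes.

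That library was the highest or lowest for several members, given here with their transcript GC content. It had the lowest values of C1galt1 and C1galt1c1, whose transcripts have 39.8% and 39.1% GC, and of Gcnt1 (44.1%). It had the highest values of Galnt12 (55.2%) and B3gnt6 (56.2%). For B3gnt7, with the highest GC content of the members (57.2%), it was not at an end of the order. Nor was it for B4galnt2, Fut2, Gcnt3 and B3galnt1. After a correction of each library for GC content, Roseburia replicate 1 remained lowest for C1galt1 (409) and highest for Galnt12 (499.6, next 469). It was no longer at an end of the order for C1galt1c1 (893), Gcnt1 (234) and B3gnt6 (539).

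Gcnt1 and Gcnt3 add the N-acetylglucosamine branch of core 2 glycans, and Gcnt3, the mucin-type form, also makes core 4. Gcnt1 was read at 402, 420 and 233 in core and at 190, 256, 460, 302 and 675 in Roseburia libraries, a spread of 3.56-fold within the latter group and a log2 difference of −0.00 (SE 0.38). Gcnt3 was read at 3401, 1685 and 5110 in core and at 3406, 5846, 4025, 5494 and 1910 in Roseburia libraries. Its 3 highest values were in Roseburia replicates 2 and 4 and core replicate 3. The spread within each group, 3.03-fold in core and 3.06-fold in the other, exceeded the difference between them (log2 0.32, SE 0.40). Per kilobase, Gcnt3 was 17.7-fold above Gcnt1 in Roseburia replicate 2 and 2.18-fold above it in replicate 5.

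B3gnt6 makes the core 3 structure, which is typical of the colon. It was read at 516, 261 and 549 in core and at 741, 377, 420, 708 and 281 in Roseburia libraries. Both groups covered most of the same range (log2 difference 0.17, SE 0.35).

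**Figure D1:**
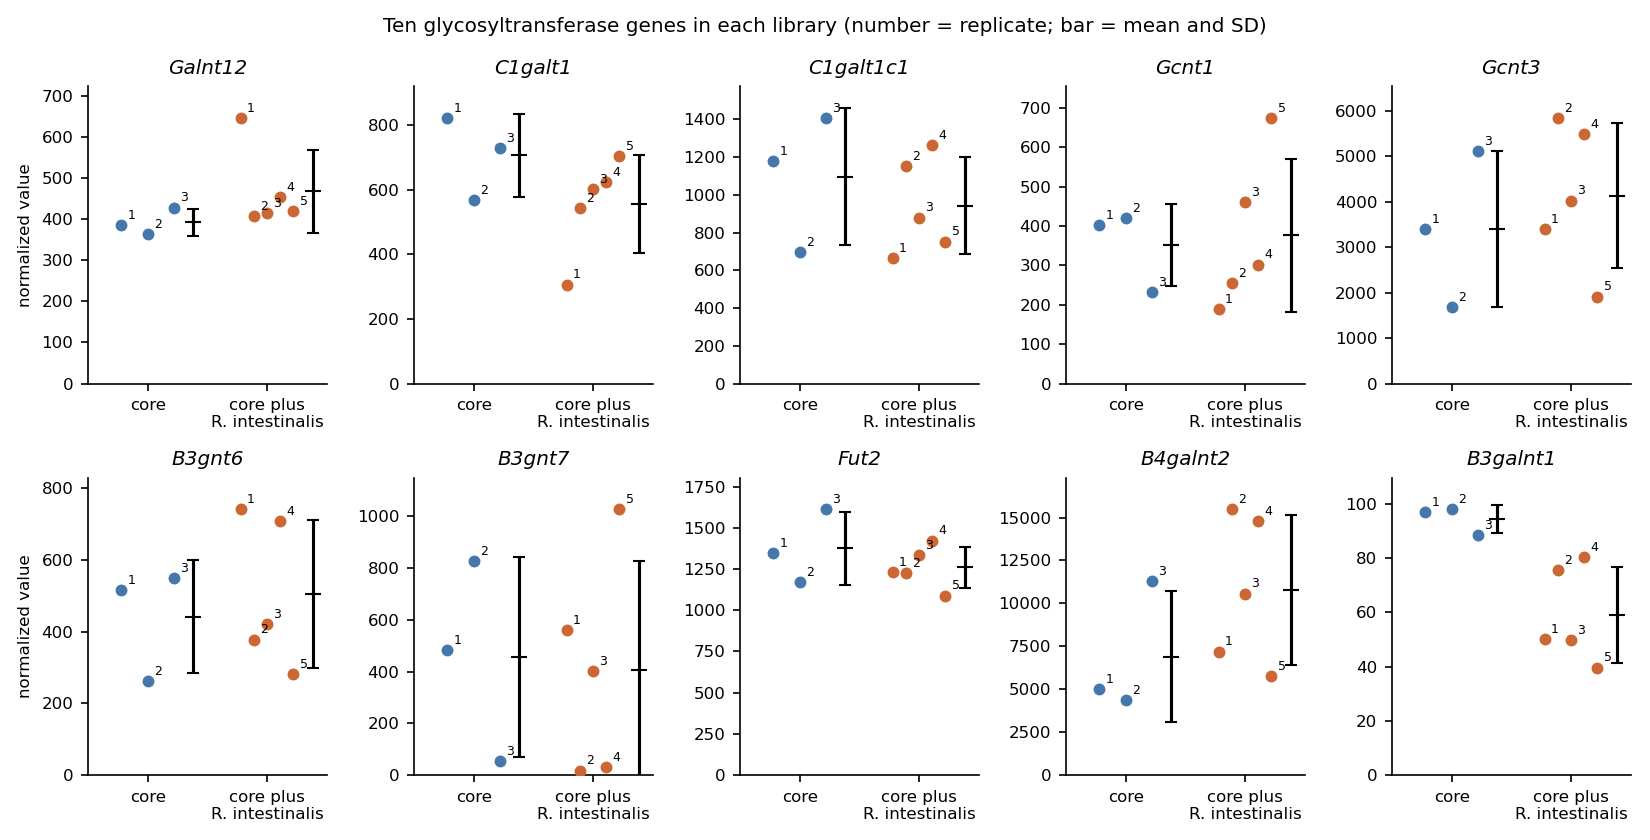
Normalized value (vertical axis) of each of the 10 genes in core (blue, n = 3) and Roseburia (orange, n = 5) libraries, numbered by replicate, with mean and SD as bars (the lower bar of B3gnt7 is cut at 0 in Roseburia). The groups overlap in 9 panels, and in B3galnt1 the core libraries, 88.4 to 97.9, sit above the others, 39.6 to 80.3.

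B3gnt7, which extends chains with N-acetylglucosamine and takes part in making sulfated polylactosamine, varied more than any other member. It was read at 484, 826 and 54.0 in core and at 560, 17.3, 401, 29.5 and 1027 in Roseburia libraries. Core replicate 3 and Roseburia replicates 2 and 4 were each under 60 and the other 5 libraries were each above 400. The highest library was 59.6-fold above the lowest, and only 0.184% of the genes tested had a larger SD over the 8 libraries. The log2 difference between the groups, −0.75, was smaller than its SE, 1.37, and it was −1.93 without core replicate 3, 0.05 without Roseburia replicate 2 and 0.03 when core replicate 2 was left out.

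B4galnt2 adds a terminal N-acetylgalactosamine, forming the Sd(a) antigen on gut epithelium, where it is known to influence the attachment of bacteria. It was read at 5020, 4380 and 11291 in core and at 7185, 15476, 10571, 14797 and 5766 in Roseburia libraries. Its 3 highest values were in the same 3 libraries that were lowest for B3gnt7. The log2 difference was 0.67 (SE 0.38) with overlapping groups, and the raw fold change in the authors' deposited table was 1.56 with a posterior probability of 0. Without core replicate 3 the log2 difference was 1.09. Relative to the 12 epithelial markers, a shift shared by all genes, it was 0.39. With log2 Hoxb13 as a covariate, the log2 difference was 0.54 (SE 0.21) for B4galnt2, 0.18 (SE 0.24) for Gcnt3 and −0.19 (SE 0.30) for B3gnt7. Without the 3 libraries with the lowest Hoxb13 it was 0.70 (SE 0.25), 0.31 (SE 0.37) and −0.04 (SE 0.38). Both settings were chosen after seeing the data, for genes whose values split on those same 3 libraries. A smaller SE is therefore partly built in and is not read as a result. The second setting also leaves fewer libraries in each group. Per kilobase, the ratio of B4galnt2 to B3gnt7 ran from 6.32 in core replicate 2 to 1069 in Roseburia replicate 2.

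Among the 10 members, 2 (B4galnt2 and Gcnt3) had their 3 highest values in exactly the 3 libraries with the lowest Hoxb13, and 1 (B3gnt7) its 3 lowest. Of all genes tested, 6.18% and 5.61% did so. Since earlier results had already placed B4galnt2 highest in these libraries, nothing is read from the counts among members. The genes whose values most resembled B4galnt2 over the 8 libraries were Ugt1a1 (Pearson r = 0.99), Cyp4b1, Cyp2d26, Clec2e and Aqp11 (lowest r = 0.98), of 9591 genes compared. For B3gnt7, a gene picked for this comparison after its values were seen, they were Thbs4 (r = 0.99), Atp8a1, Slc15a1, Gprc5a and Hoxb13 (lowest r = 0.98). All these values come from the same 8 libraries and share their depth and tissue makeup.

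**Figure D2:**
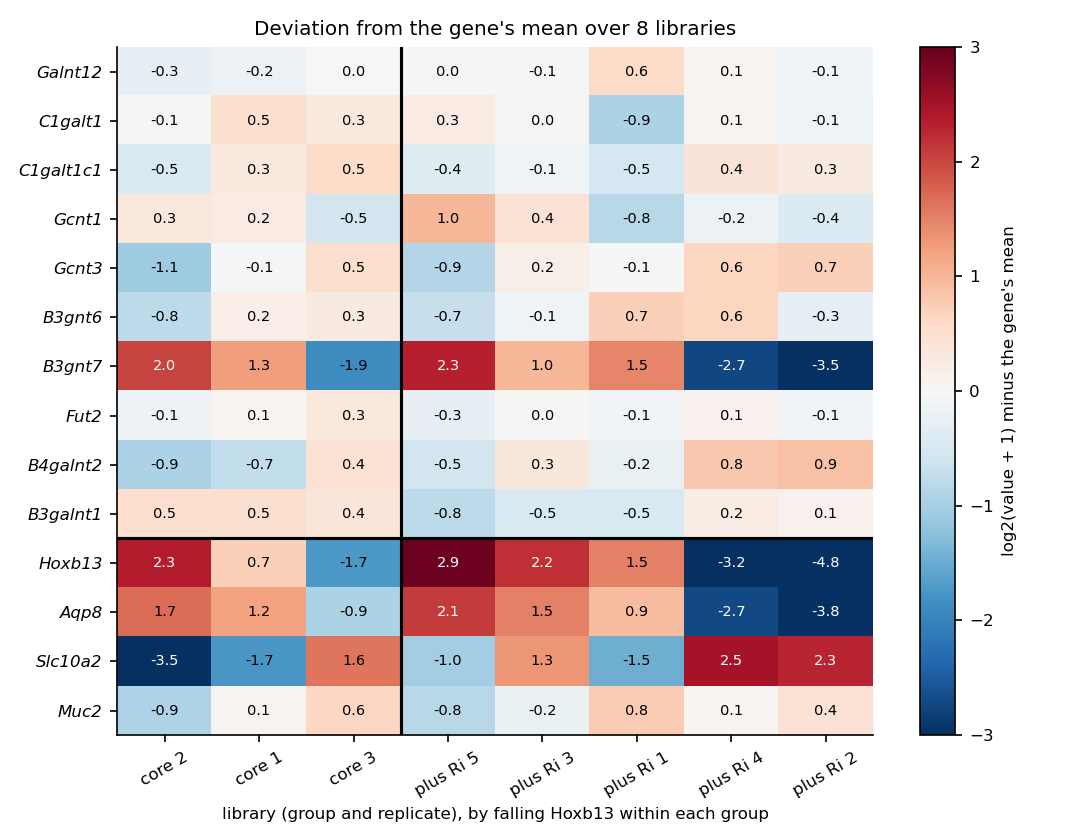
Deviation of log2(value + 1) from the mean over the 8 libraries (colour, saturated beyond the ends of the scale, and number) for the 10 genes, above the line, and for Hoxb13, Aqp8, Slc10a2 and Muc2, below it, with libraries sorted by Hoxb13 within core and Roseburia (Ri). B3gnt7 is blue and B4galnt2 and Gcnt3 are red in core replicate 3 and in Roseburia replicates 2 and 4, where Hoxb13 is lowest.

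Fut2 adds the alpha-1,2-linked fucose of the secretor antigens and is known to respond to gut bacteria. It was the steadiest member, at 1346, 1171 and 1613 in core and at 1233, 1225, 1334, 1423 and 1089 in Roseburia libraries. The highest library was only 1.48-fold above the lowest, and 85.9% of the genes tested had a larger SD. The groups overlapped (log2 difference −0.12, SE 0.14). The neighbouring relatives of Fut2 were near the floor, Sec1 between 0 and 1.27 and Fut1 between 0 and 14.0. Most like Fut2 over the libraries were Gins4 (r = 0.96), Rnaseh2a, Rpl22l1, Ndufb5 and Snrpe (lowest r = 0.95).

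B3galnt1, the globoside synthase, adds N-acetylgalactosamine to a glycolipid and is no mucin enzyme. It was read at 96.8, 97.9 and 88.4 in core and at 50.1, 75.5, 49.8, 80.3 and 39.6 in Roseburia libraries. Every core library was above every Roseburia library. The mean was 94.4 ± 5.22 (SD, n = 3) in core and 59.0 ± 17.8 (SD, n = 5) with R. intestinalis, a log2 difference of −0.72 (SE 0.25). In the authors' deposited table its posterior probability was 0.98 and its fold change 0.63.

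Connective tissue markers moved with B3galnt1. The summed level of 6 fibroblast markers (Col1a1, Col1a2, Col3a1, Dcn, Lum and Pdgfra, none at 0 in any library) was 7773 to 8921 in core and 4614 to 6994 in Roseburia libraries, so the groups did not overlap there either, and all 6 had a lower mean with R. intestinalis. Most markers of several other cell types outside the epithelium also had a lower mean with R. intestinalis. The median log2 difference was −0.50 for smooth muscle (0 of 6 markers higher), −0.33 for endothelium (0 of 4), −0.38 for enteric neurons and glia (1 of 5) and −1.83 for adipocytes. Leukocyte markers did not follow, with 4 of 6 higher and a median of −0.01. The 3 libraries with the lowest B3galnt1 were the 3 with the lowest fibroblast sum. Per 1000 units of that sum, B3galnt1 was 10.9 to 11.8 in core and 7.79 to 11.5 in Roseburia libraries. The groups overlapped through Roseburia replicate 4 (11.5), and replicate 1 was level with the lowest core library at 10.9. Roseburia replicates 2, 3 and 5 were below every core library (10.8, 9.43 and 7.79). The genes most like it were Tmem184c (r = 0.98), Pkia, Gpx8, Sparcl1 and Lgals1 (lowest r = 0.96). In whole tissue, fewer cells of a type and less RNA per cell cannot be told apart, and the part of these cell types in the B3galnt1 difference was not tested. The groups stayed apart after the correction for GC content, by a narrow margin (lowest core library 80.3, highest Roseburia library 79.3).

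**Figure D3:**
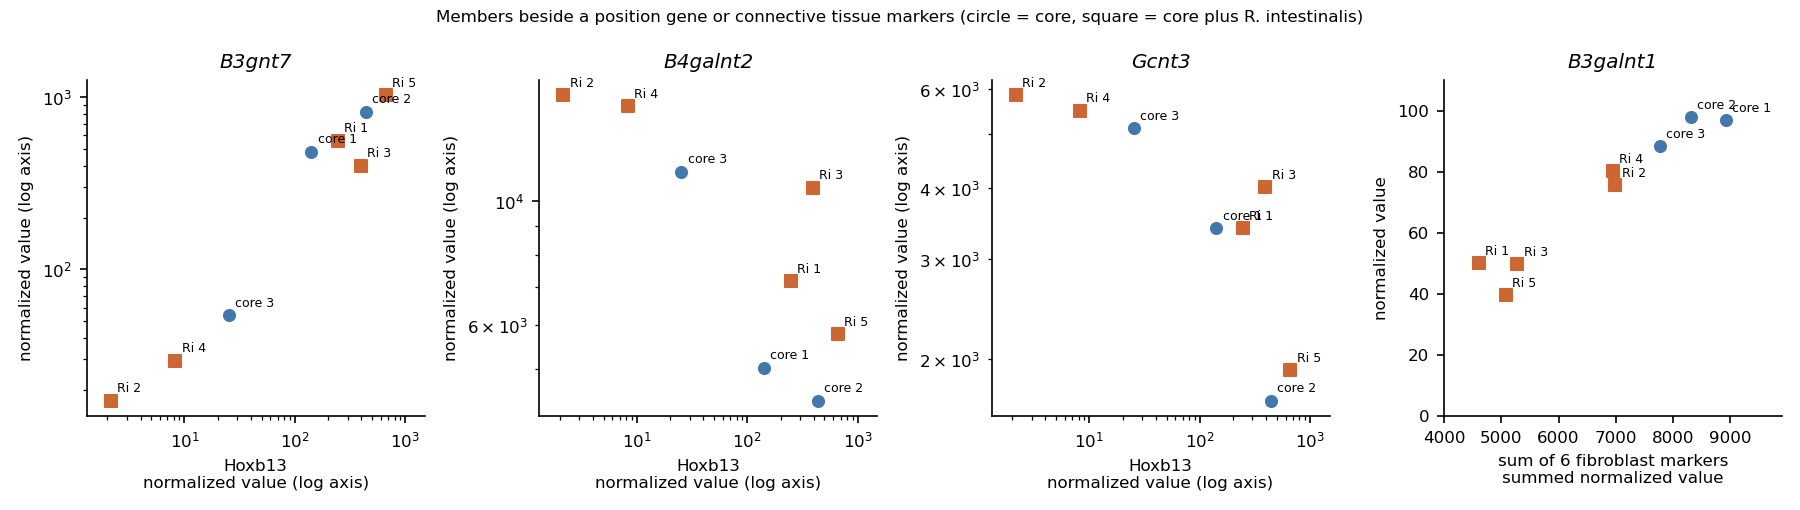
Normalized values of B3gnt7, B4galnt2 and Gcnt3 against Hoxb13 (log axes) and of B3galnt1 against the summed level of 6 fibroblast markers (linear axes), 1 point per library, circles for core and squares for Roseburia (Ri). The 3 libraries with Hoxb13 at 25.3 or below have B3gnt7 under 60 and the highest B4galnt2 and Gcnt3, and B3galnt1 is lowest in the 3 libraries with the lowest fibroblast sum.

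Across the 10 members, 4 log2 differences were above 0 and 6 below, with a median of −0.06, against −0.003 over all genes tested. By limma's test over all 13020 genes, 0 members passed an adjusted p of 0.05, as did 0% of genes (smallest adjusted p = 0.503), and 1 member, B3galnt1, had an unadjusted p under 0.05, as did 8.13% of genes. The group ranges did not overlap in 1 member, again B3galnt1, and in 5.84% of genes. The authors' deposited posterior probability reached 0.95 in 1 member, against 0.481% of the genes in the table. Since earlier results of this contrast were known when the members were chosen, nothing is read from these counts.

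Further genes of glycosylation, not only that of mucins, were taken from a list of 110 symbols, some of them old and new names of the same gene. Of these symbols, 104 were in the table and 91 had a mean of at least 10. By limma, 0 of the 91 passed the adjusted threshold. An unadjusted p under 0.05 was found for 6 with a higher and 5 with a lower value with R. intestinalis, 12.1% of the list against the 8.13% above. The groups were apart in 5 higher and 4 lower genes, 9.89% against 5.84%. The median log2 difference was −0.07.

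The 9 were Galnt13, Galntl6, Gfpt2 and Slc35a1, lower with R. intestinalis, and B4galt1, B4galnt1, Gal3st1, Papss1 and Papss2, higher. Of these, Galnt13, Galntl6, Gfpt2 and Papss1 are named only after their values were seen. Galnt13 and Gfpt2 were near the floor, with lowest values of about 3 and 5 reads, and the lowest of Galntl6 stood for about 12. B4galt1, which adds galactose to N-acetylglucosamine, was read at 204, 279.96 and 280.1 in core and at 434, 310.1, 384, 425 and 423 in Roseburia libraries, and the groups did not overlap. Its log2 difference was 0.64 (SE 0.17, limma adjusted p = 0.588), and the authors' deposited table called it (posterior probability 0.99, fold change 1.55). Gal3st1, the sulfotransferase of galactosylceramide, was read at 132, 177 and 187 in core and between 207 and 429 with R. intestinalis (log2 difference 0.91, SE 0.23, limma adjusted p = 0.588). Papss2, which makes the sulfate donor, was read at 1891, 1730 and 2485 in core and between 2667 and 4376 with R. intestinalis (log2 difference 0.69, SE 0.18). Slc35a1, which carries the sialic acid donor into the Golgi, went the other way, at 1034, 745 and 937 in core and between 622 and 724 with R. intestinalis (log2 difference −0.41, SE 0.14). Limma's adjusted p was 0.588 for each of these 4 genes. With library weights it was 0.0416 for each, and 0.441 when the weights were set without Roseburia replicate 3. After the GC correction the log2 difference was 0.58 for Gal3st1 and −0.27 for Slc35a1. Relative to epithelial markers, a shift shared by all genes, it was 0.36 for B4galt1, 0.41 for Papss2 and −0.68 for Slc35a1.

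Initiating transferases differed in direction. Galnt6 averaged 553 ± 192 in core (n = 3) and 827 ± 147 with R. intestinalis (n = 5), with a log2 difference of 0.62, while Galnt7 averaged 2260 ± 431 and 1794 ± 237 (log2 difference −0.32). Of the 14 initiation genes tested, 10 differences were below 0, as were 6568 of the 13020 over all genes, and 0 passed the adjusted threshold. Among branching genes, Gcnt4, a core 2 enzyme, was between 17.1 and 145 in core and between 38.2 and 239 with R. intestinalis (log2 difference 1.37, SE 0.70). Its difference was 0.71 without core replicate 2 and 2.22 without core replicate 3. Gcnt2, which makes branched I antigen, averaged 563 ± 42.0 and 548 ± 122.

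Among the 13 sialyltransferases tested, 0 passed and 0 had an unadjusted p under 0.05. In 11 the difference was below 0, as in 6568 of the 13020 over all genes. Each of these 11 was smaller in size than its SE, except that of St6galnac3 (−0.67, SE 0.34). St6gal1, which caps N-glycans, averaged 873 ± 55.5 in core and 799 ± 120 with R. intestinalis, and St3gal6 1034 ± 358 and 866 ± 432. Of the 7 fucosyltransferases, Fut8, which fucosylates the core of N-glycans, averaged 1256 ± 172 and 1035 ± 105, and Pofut2 80.9 ± 29.1 and 117 ± 47.8. Chst4, a sulfotransferase of N-acetylglucosamine, averaged 760.3 ± 105 and 691 ± 109. Limma's adjusted p was between 0.588 and 0.894 for the 14 genes named from this list.

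**Figure D4:**
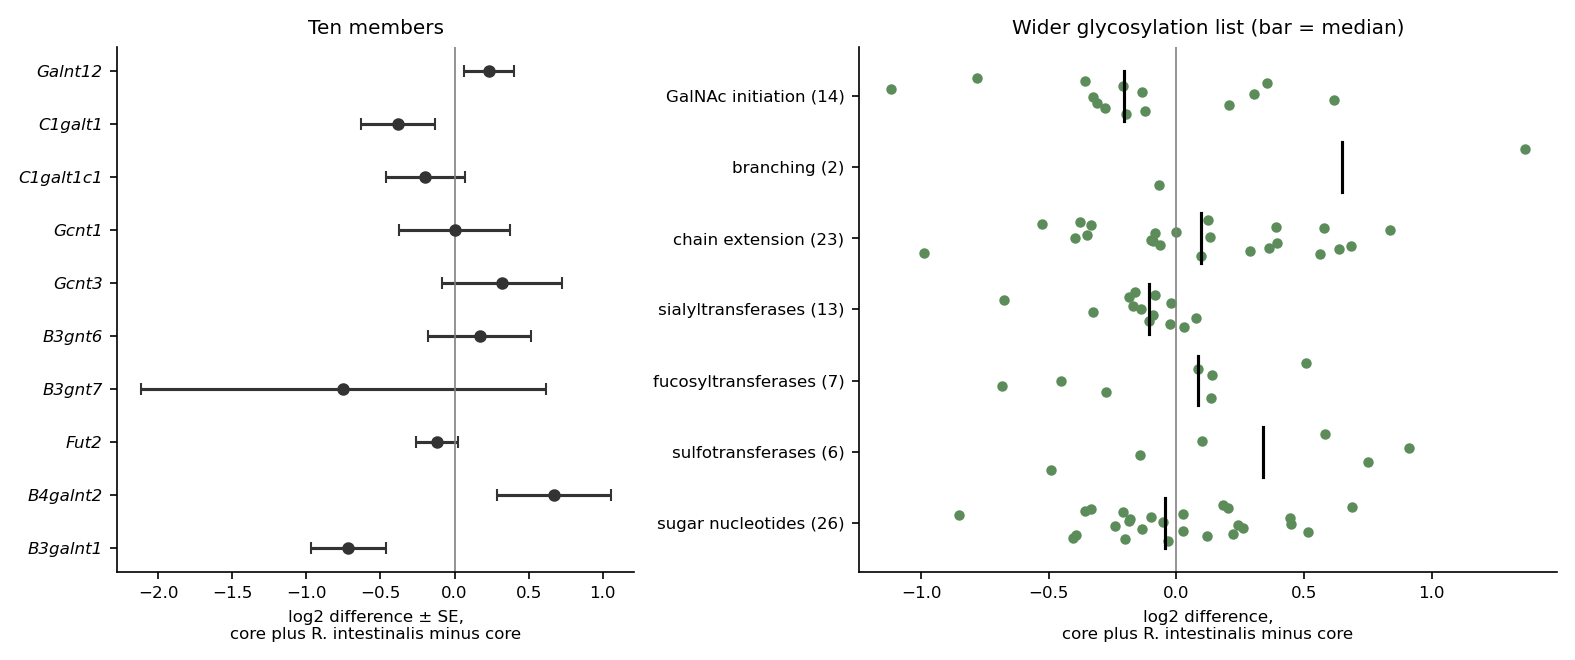
Log2 differences (Roseburia over core) of the 10 members with their SE (left) and of the 91 tested genes of the wider list by role (right, 1 dot per gene, median as a bar, number of genes in parentheses). B3gnt7 has the widest SE, 1.37, B3galnt1 sits at −0.72, and in each role of the wider list dots lie on both sides of 0.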

How the data were processed

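The submitters' processing notes name mm9, RSEM 1.2.23 and Bowtie2, without their role or order. The deposited table gives 1 normalized expression signal per gene and library, with the scaling done by the authors. It also gives the authors' score, a posterior probability of differential expression, and raw and posterior fold changes as linear ratios. No source used here states the annotation, gene filter, strand setting or the tool behind them.

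Roseburia libraries are those of the core plus R. intestinalis community. Per the labels, a stranded mRNA kit was used. In GENCODE M21, exons of B4galnt2 and B3gnt7 overlap 1 gene each on the opposite strand. Without a stated strand setting, such reads cannot be told apart.

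Log2(value + 1) was taken, a scale that compresses differences of weakly expressed genes. The 13020 genes whose mean reached 10 were fitted together with limma 3.58.1 in R 4.3.3 (mean-variance trend, Benjamini-Hochberg adjustment, threshold 0.05), a script tested on simulated data. SE is limma's moderated error. Groups were called apart where ranges did not overlap. Depth was estimated as the sum of values over the step of low values. Of values under 30, 80.0% to 84.5% per library were multiples of it (tolerance 0.05), so whole reads were not assumed.

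Members and lists were chosen with earlier results of these data known. From each role of the wider list, genes past the threshold were named, and otherwise the 2 with the smallest p and a mean of at least 50, plus genes called by the authors. The 5 genes most like a member were those of highest Pearson r. Alternatives were pseudocounts of 0.5 and 5, a minimum mean of 50 or none, trimmed-mean rescaling, quantile normalization, no trend, each library left out and a replicate block. Chosen after seeing the data were a block on sample-name numbers, Hoxb13 as a covariate, leaving out the 3 libraries with the lowest Hoxb13, a GC correction (lowess, span 0.3), values relative to epithelial markers, and library weights with and without Roseburia replicate 3.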

Additional observations from a re-analysis of the deposited data

Results flagged for a closer look

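In the group of 5, a value was singled out when its gap to the nearest library exceeded 0.71 of the group's range, which chance gives in about 1 in 20 groups. Of 24 genes checked, 2 had such a value, both in Roseburia replicate 1. Galnt12 was at 646 there, with 453 as the next value (gap 0.809 of the range). B4galnt1, which makes GM2-type gangliosides, was at 2384 there against 702 to 900.4 in the other libraries of its group and 509 to 633 in core (gap 0.882). Its log2 difference of 0.84 (SE 0.35, limma adjusted p = 0.588) was 0.52 without that library.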

How the results depend on the processing

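Over all genes, limma called 0 under the main settings and under the alternatives run, apart from 1 without core replicate 1 (range over left-out libraries 0 to 1) and 455 with library weights. The weights also gave 4 calls in the wider list, B4galt1, Gal3st1, Papss2 and Slc35a1 (adjusted p = 0.0416 each). Roseburia replicate 3 had a weight of 7.98, and weighting with it left out gave 0 calls over all genes and an adjusted p of 0.441 for these 4. The 1058 genes with an unadjusted p under 0.05 became 269 without core replicate 1, 1902 and 694 without Roseburia replicates 2 and 3, 395 with the replicate block, 2400 with Hoxb13 as a covariate, 1956 without the 3 libraries with the lowest Hoxb13 and 3829 with library weights. The list's 11 became 4 without core replicate 1, 7 at a mean of at least 50, 5 with the replicate block, 18 with Hoxb13 as a covariate, and 25 and 18 with library weights including and leaving out Roseburia replicate 3. In each case the cause was not tested. Replicate numbers did not pair the libraries (correlation of same-numbered deviations −0.12, −0.53 and −0.07).

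Over 23 alternatives, B3galnt1 ran from −1.06 to −0.51, B4galnt2 from 0.39 to 1.09 and C1galt1 from −0.66 to −0.12, each with an unchanged sign. B3gnt7 ran from −2.03 to 0.09, Gcnt3 from −0.12 to 0.68, B3gnt6 from −0.17 to 0.36, Galnt12 from −0.04 to 0.36, C1galt1c1 from −0.49 to 0.01, Fut2 from −0.40 to 0.00 and Gcnt1 from −0.28 to 0.42. A posterior probability of at least 0.90 gave 105 genes in place of the authors' 82. Among other named genes, the difference fell from 0.84 to 0.49 for B4galnt1 after the GC correction. That of Galnt6 fell from 0.62 to 0.34 relative to epithelial markers, a shift shared by all genes. Galnt7, at −0.32 under the main settings, was at −0.21 without core replicate 1, −0.17 after the GC correction and −0.60 relative to epithelial markers. The small differences of St6gal1, St3gal6, Fut8, Pofut2, Chst4 and Gcnt2 also moved by over 1.5 times, and those of St3gal6 and Gcnt2 had either sign.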

Other observations

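Other glycosylation genes also split between core replicate 3 with Roseburia replicates 2 and 4 and the remaining 5 libraries, a division noticed after the values were seen. Of the 91 genes of the wider list, 7 had their 3 highest values in exactly these libraries and 13 their 3 lowest (7.69% and 14.3%, against 6.18% and 5.61% of all genes tested). The 13 were Galntl1, A4galt, St3gal4, St6galnac1, St6galnac4, St6galnac6, Fut4, Fut9, Chst4, Gne, Slc35a2, Slc35c1 and Slc26a2. St6galnac6, a sialyltransferase, was at 3178, 2220 and 3066 there and between 4427 and 7737 in the other 5. St6galnac1, which makes sialyl-Tn, was at 6.89, 5.39 and 2.36 there and between 20.6 and 99.7 elsewhere. It was near the floor there, with a lowest value of about 2 reads, and the lowest of Fut9 stood for about 3. Slc26a2, the sulfate transporter, was at 1268.5, 1201 and 1178 there and between 1485 and 3069 elsewhere.

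The 7 were Galnt4, Galntl2, A4gnt, Gmds, Galk2, Uap1 and Gnpnat1. Galntl2 was also near the floor, with a lowest value of about 2 reads. A4gnt, which caps mucin chains with alpha-linked N-acetylglucosamine, was at 891, 805.5 and 815 in the 3 libraries and between 198 and 571 in the other 5. Galnt4 was at 1044, 1194 and 1161 there and between 803 and 1021 elsewhere. Gmds, an enzyme of fucose donor synthesis, was at 3777, 3264 and 3236 there and between 1964 and 2744 elsewhere. No test was made of this division.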
